A study of Homo sapiens with 6 samples.

Results

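The SOX genes encode transcription factors that share a DNA-binding HMG box and are sorted into groups by the likeness of that box. Of the 46427 genes in the count table, 9 are described here, picked out of the table by their symbols: SOX2 of group SOXB, SOX4, SOX11 and SOX12 of group SOXC, SOX5, SOX6 and SOX13 of group SOXD, SOX9 of group SOXE and SOX15 of group SOXG. RNA was sequenced from Hs578T cells, a human triple-negative breast cancer line that grows in DMEM with fetal bovine serum. A control line (shCTRL, genotype label Control) carried control shRNA and a knockdown line (shCCN3, genotype label CCN3 KD) carried CCN3 shRNA #2, each brought in with a pSUPER retrovirus and kept under puromycin selection, with 3 samples per line. CCN3 is a secreted matricellular protein, and the comparison asks which mRNAs differ between these lines. The authors name 1 transduced line per arm and only 1 CCN3 shRNA for the sequencing. An effect of losing CCN3, another effect of that shRNA and a difference between selected lines thus cannot be told apart. Whether a line was 1 clone or a pool is not stated. The series design calls the 3 samples of a group biological replicates, and the p-values measure the spread between samples of a line.

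SOX proteins bend DNA at a short AT-rich site in the minor groove and act mostly together with partner factors. SOX2 works with OCT4 in pluripotent cells. The SOXC proteins activate transcription in progenitors of neurons and mesenchyme. SOX9 drives cartilage formation, with SOX5 and SOX6 as partners that lack an activation domain of their own, and SOX9 also marks luminal progenitors of the mammary gland. In breast tumors, SOX4 and SOX9 have been studied for their part in the epithelial to mesenchymal transition and in stem-like cells.

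The shRNA target CCN3 was at 103, 102 and 98.1 CPM in the shCTRL libraries and 47.4, 47.2 and 46.5 CPM in the shCCN3 libraries, where CPM are counts scaled to a common library size with TMM factors. It fell by 1.10 on the log2 scale (SE 0.055, adjusted p = 1.34e-06, Benjamini-Hochberg adjusted, by the quasi-likelihood test of edgeR). The libraries held between 56159110 and 68393177 counts, so that 3 counts in a library stand for 0.0439 to 0.0534 CPM, counting error only. Summed markers of mesenchymal cells (VIM, CDH2, FN1, ZEB1, ZEB2 and CD44) were 12400 to 12500 CPM in shCTRL and 11700 to 11900 CPM in shCCN3 libraries, with 1 of the 6 called higher (CDH2) and 1 lower (CD44). Of all genes tested, 33.4% were called at an adjusted p under 0.05, 16.2% higher and 17.3% lower. The 7 receptor and epithelial markers summed to 248 to 278 and 308 to 358 CPM, with ESR1, EPCAM and CDH1 at or near 0, although PGR was present at 2.86 and 3.80 CPM on average and ERBB2 at 77.9 and 78.2 CPM. KRT18 was called higher and KRT8 lower among the 4 of them that passed the filter on low counts, against the same shares of all genes tested. The 9 markers of blood, endothelial, fat and glial cells summed to 3.74 to 5.44 and 3.88 to 4.23 CPM, with CD3E and CDH5 at 0 in every library and none of the 3 that passed the filter called, and the part of other cells in the SOX results was not tested. In bulk RNA, fewer cells that express a gene and less RNA per cell cannot be told apart.

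The genes that carry the results below differ in the shared box as follows. Each line gives the first 20 codons (60 bases) of the most alike stretch of 79 codons in the coding sequence of GENCODE release 29 on GRCh38, 5′ to 3′ on the coding strand, and capitals mark the 29 bases that are the same in all 9 members. SOX4 and SOX12 are shown because they are of the same group and differed in opposite directions, SOX9 because it is of another group, and SOX13 because it did not pass the test.
SOX4: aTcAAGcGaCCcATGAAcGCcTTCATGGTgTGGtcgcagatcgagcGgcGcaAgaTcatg
SOX12: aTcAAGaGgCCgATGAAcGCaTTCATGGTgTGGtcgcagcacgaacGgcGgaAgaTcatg
SOX9: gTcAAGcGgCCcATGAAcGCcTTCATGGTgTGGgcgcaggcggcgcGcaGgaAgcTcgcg
SOX13: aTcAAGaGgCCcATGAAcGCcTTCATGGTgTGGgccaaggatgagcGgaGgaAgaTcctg
Translated, 12 of these 20 residues and 32 of the 79 in the whole stretch were the same in all 9 members. Identity over the 79 residues was 86.1% between SOX4 and SOX12, 92.4% between SOX4 and SOX11, 93.7% between SOX5 and SOX13 and 59.5% between SOX4 and SOX9. Reads of the members could still be told apart over most of their length. Of the 50-base stretches of the exons, none of SOX9, SOX12 or SOX15 occurred in a transcript of another gene, and 2.09% of SOX4, 2.03% of SOX2, 1.30% of SOX6, 0.984% of SOX13, 0.288% of SOX11 and 0.0461% of SOX5 did. For SOX4 the partner was AL512380.2, an antisense gene, and not another SOX gene. SOX2 did share stretches with other SOX genes, SOX1 and SOX21, and SOX5 shared its few with SOX5P1.

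SOX4 was higher in shCCN3 cells, SOX12 and SOX9 were lower, and SOX13 differed by less than the spread between replicates. Of the 9 members, 8 had at least 1 count and 6 passed the filter on low counts. By edgeR's quasi-likelihood test with an adjusted p under 0.05 over 17419 genes, 1 member was higher and 2 were lower, against 16.2% and 17.3% of all genes tested. In all, 3 members were called, against 33.4% of genes tested, and in 4 members the libraries of the 2 groups did not overlap, against 46.3% of genes tested. With only 6 members past the filter, nothing is read from these shares about the family. The median log2 fold change of the 6 was -0.33, beside 0.008 over all genes tested. Members are listed below by group, from the expressed SOXC and SOXE genes to those near 0.

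**Figure D1:**
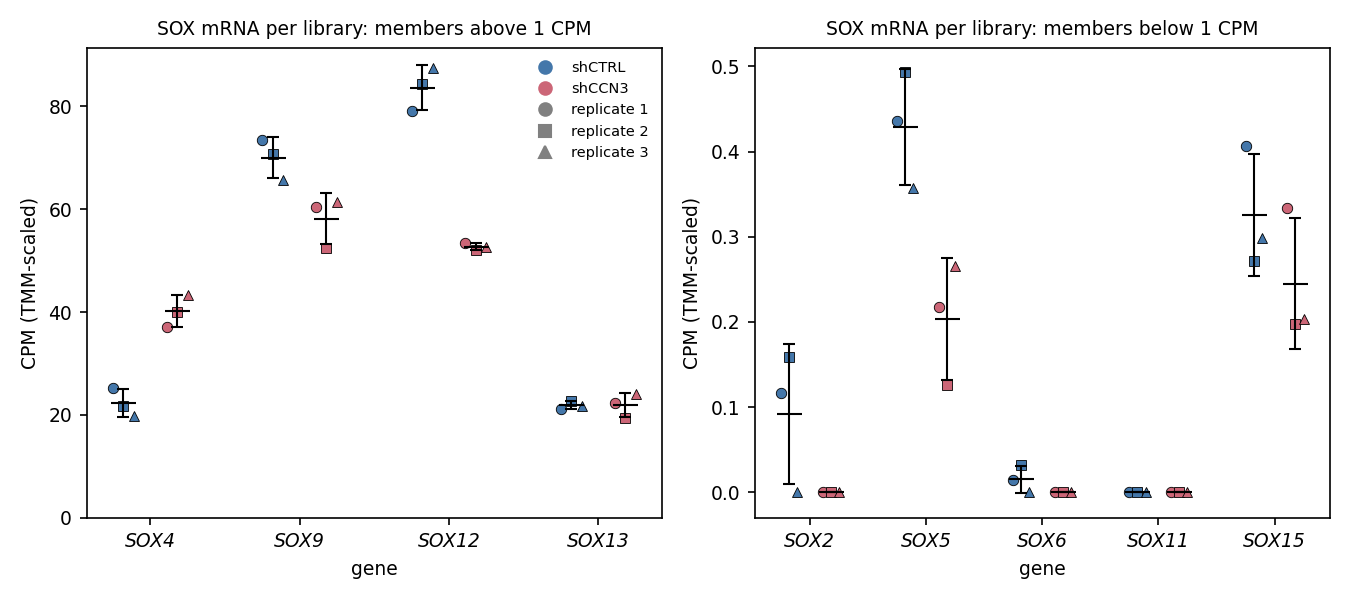
CPM of the 9 members in each library on linear axes, with the mean and SD of 3 replicates as black bars, for members above 1 CPM (left) and below it (right). SOX4 lies at 19.8 to 25.2 CPM in shCTRL and 37.1 to 43.3 CPM in shCCN3 libraries, SOX12 at 79 to 87.5 and 52.0 to 53.4 CPM, the groups of SOX13 overlap, and SOX2 is listed at 0 in every shCCN3 library.

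SOX4 (chr6:21592768-21598619, plus strand, GRCh38, 1 exon) encodes a SOXC activator of 474 codons that acts downstream of TGF-beta. Its counts were 1732, 1369 and 1328 in the shCTRL libraries and 2560, 2231 and 2771 in the shCCN3 libraries, which is 25.2, 21.8 and 19.8 CPM against 37.1, 40.1 and 43.3 CPM. Every shCCN3 library lay above every shCTRL library, and the highest shCTRL library was replicate 1. The mean rose from 22.3 ± 2.74 to 40.2 ± 3.09 CPM (SD, n = 3 each), 1.81-fold. The log2 fold change was 0.85 (SE 0.100, 95% interval 0.627 to 1.078, adjusted p = 0.000193 by edgeR's quasi-likelihood test), and it lay between 0.77 and 0.95 under the 13 alternatives.

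SOX12 (chr20:325595-330224, plus strand, GRCh38, 1 exon) encodes a shorter SOXC activator of 315 codons, which is weaker than SOX4 in reporter assays. It was at 79, 84.4 and 87.5 CPM in the shCTRL libraries and at 53.4, 52.0 and 52.6 CPM in the shCCN3 libraries. The groups stood well apart, and the shCCN3 libraries lay closer together than the shCTRL libraries. The mean fell from 83.6 ± 4.30 to 52.7 ± 0.739 CPM (SD, n = 3 each), to 0.63 of the control level. The log2 fold change was -0.67 (SE 0.061, 95% interval -0.805 to -0.529, adjusted p = 4.4e-05 by edgeR's quasi-likelihood test), and it lay between -0.71 and -0.63 under the 13 alternatives. The third SOXC gene, SOX11 (chr2:5692667-5701385, plus strand), a neuronal factor, had no count in any library, so that it lay under the limit of 3 counts per library.

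SOX9 (chr17:72121020-72126420, plus strand, GRCh38, 3 exons) encodes 509 codons and is the only SOXE gene with reads here, since SOX8 and SOX10 were at 0 in all 6 libraries. It was at 73.5, 70.8 and 65.7 CPM in the shCTRL libraries and at 60.5, 52.4 and 61.4 CPM in the shCCN3 libraries. The groups did not overlap, but the gap between the lowest shCTRL and the highest shCCN3 library was smaller than the range within either group. The mean fell from 70.0 ± 3.95 to 58.1 ± 4.93 CPM (SD, n = 3 each), to 0.83 of the control level. The log2 fold change was -0.27 (SE 0.078, 95% interval -0.445 to -0.092, adjusted p = 0.026 by edgeR's quasi-likelihood test). The call was lost without shCTRL replicate 1 (adjusted p = 0.0963, edgeR) and without shCTRL replicate 2 (adjusted p = 0.101, edgeR), while the log2 fold change stayed between -0.31 and -0.20.

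Within the SOXD group, SOX13 was expressed and SOX5 and SOX6 were near 0. SOX13 (chr1:204073115-204127743, plus strand, GRCh38, 14 exons), which binds TCF factors and is known from T cells and cartilage, was at 21.2, 22.7 and 21.7 CPM in the shCTRL libraries and at 22.3, 19.4 and 24 CPM in the shCCN3 libraries. The lowest and the highest value were both in shCCN3 libraries, and both means were 21.9 CPM (SD 0.751 and 2.35, n = 3 each). The log2 fold change of SOX13 was 0.00 with a 95% interval of -0.197 to 0.205 (adjusted p = 0.978 by edgeR's quasi-likelihood test).

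SOX5 (chr12:23529500-24562544, minus strand, GRCh38) had 30, 31 and 24 counts in the shCTRL libraries and 15, 7 and 17 in the shCCN3 libraries, or 0.436, 0.493 and 0.357 CPM against 0.218, 0.126 and 0.266 CPM. Every shCCN3 library lay below every shCTRL library. The log2 fold change of -1.06 (SE 0.364, 95% interval -1.878 to -0.236) missed the threshold by edgeR's quasi-likelihood test (adjusted p = 0.051), and was under it by limma-voom (adjusted p = 0.0398). SOX6 (chr11:15966449-16739591, minus strand) had 1, 2 and 0 counts in the shCTRL libraries and none in the shCCN3 libraries. All were at or under 3 counts, so that no fold is given. SOX6 overlaps C11orf58 on the other strand, which was at 154 ± 8.36 and 155 ± 3.08 CPM (SD, n = 3 each).

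SOX2 (chr3:181711924-181714436, plus strand, GRCh38), the pluripotency factor of the family, had 8, 10 and 0 counts in the shCTRL libraries and 0 in each shCCN3 library. The shCTRL libraries thus disagreed among themselves, with replicate 3 at the level of the shCCN3 libraries. SOX2 did not pass the filter, and in the fit without a filter its adjusted p was 0.108 by edgeR's quasi-likelihood test. SOX2-OT, in whose intron SOX2 lies, had 5, 2 and 4 counts against 4, 0 and 3. SOX15 (chr17:7588178-7590170, minus strand, GRCh38), whose box is 78.5% identical to that of SOX2, the highest value for SOX2 among the 9 members, had 28, 17 and 20 counts in the shCTRL libraries and 23, 11 and 13 in the shCCN3 libraries. The groups of SOX15 overlapped, and the log2 fold change was -0.40 with a 95% interval of -1.229 to 0.433 (adjusted p = 0.451 by edgeR's quasi-likelihood test), which spans a wide range in both directions.

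To compare levels between members, CPM were divided by the length of each gene's exons in kilobases. In shCTRL cells SOX12 and SOX9 had nearly equal levels of 18.1 ± 0.929 and 17.8 ± 1.00 CPM per kb (SD, n = 3 each), which do not differ beyond their spread. SOX4 followed at 3.80 ± 0.468 and SOX13 at 2.95 ± 0.101 CPM per kb. SOX15 was at 0.211, SOX5 at 0.0411 and SOX2 at 0.0365 CPM per kb on average, and of these SOX5 and SOX2 overlap in their values per library. In shCCN3 cells the order was SOX9 at 14.8 ± 1.25, SOX12 at 11.4 ± 0.160, SOX4 at 6.87 ± 0.528 and SOX13 at 2.95 ± 0.317 CPM per kb, and these 4 did not overlap. Added up, the 9 members came to 42.9 ± 0.660 CPM per kb in shCTRL and 36.1 ± 1.83 CPM per kb in shCCN3 cells.

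The make-up of that sum differed between the lines, with more SOX4 and less SOX12 in shCCN3 cells. SOX4 made up 9.96%, 8.60% and 8.02% of the sum in the shCTRL libraries and 17.4%, 20.1% and 19.6% in the shCCN3 libraries. SOX12 made up 39.4%, 42.1% and 44.9% in the shCTRL libraries and 31.6%, 32.9% and 30.1% in the shCCN3 libraries. The share of SOX9 was 41.5% on average in shCTRL and 40.8% in shCCN3 cells, with overlapping libraries. These levels depend on the transcript lengths assumed. With the length of 1 transcript in place of all exons, SOX13 was at 6.09 CPM per kb in shCTRL cells, above SOX4, while SOX4 at 6.87 and SOX13 at 6.11 CPM per kb in shCCN3 cells overlapped per library.

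**Figure D2:**
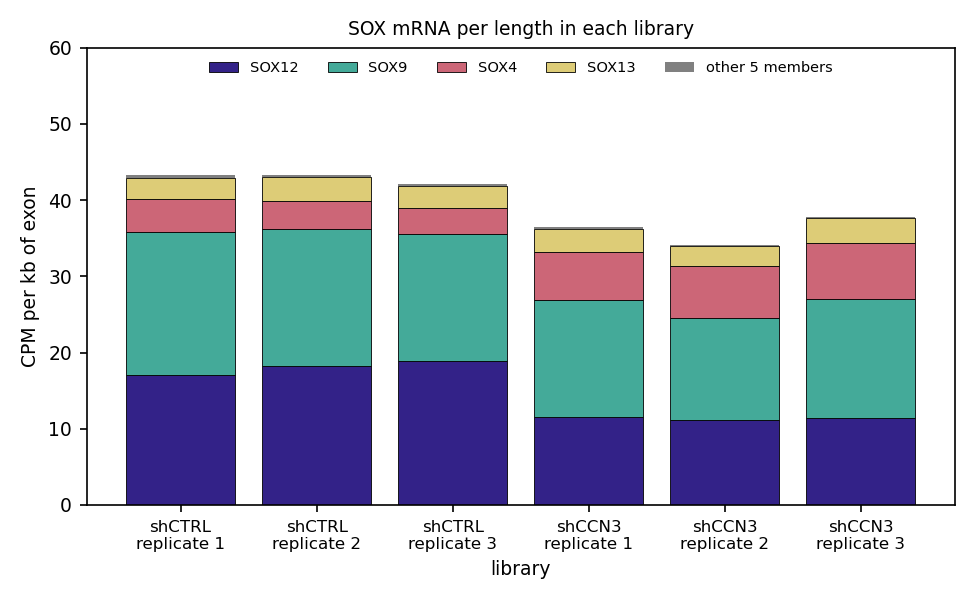
Stacked bars of CPM per kb of exon for the 9 members in each of the 6 libraries, on a linear axis from 0. SOX4 takes 8.02% to 9.96% of each shCTRL bar and 17.4% to 20.1% of each shCCN3 bar, SOX12 takes 39.4% to 44.9% and 30.1% to 32.9%, and the 5 members near 0 are hardly visible.

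A ratio of the counts of a pair of genes within a library depends on no scaling between libraries. The ratio of SOX12 to SOX4 was 3.13, 3.87 and 4.42 in the shCTRL libraries and 1.44, 1.29 and 1.22 in the shCCN3 libraries. The ratio was 2.87-fold higher in shCTRL cells and the groups were far apart, with p = 0.1 in a two-sided exact permutation test, the smallest p that 3 libraries against 3 allow. The ratio of SOX9 to SOX4 was 2.92, 3.25 and 3.32 against 1.63, 1.31 and 1.42, or 2.19-fold higher in shCTRL cells (exact permutation p = 0.1). The ratio of SOX9 to SOX12 was 0.930, 0.839 and 0.751 in the shCTRL libraries and 1.13, 1.01 and 1.17 in the shCCN3 libraries, a log2 difference of 0.39 (exact permutation p = 0.1). None of these ratios overlapped between the groups, whatever scaling between libraries is used. SOX4 had been called in the other direction than SOX12 and SOX9, so the ratios to SOX4 restate those calls and add no separate test.

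**Figure D3:**
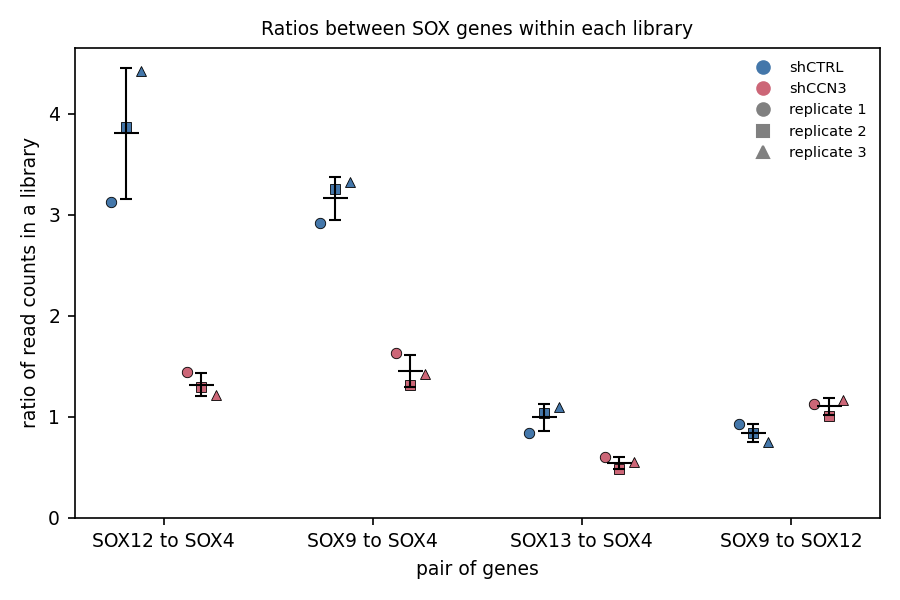
Ratios of raw read counts of pairs of SOX genes within each library, on a linear axis, with the mean and SD of 3 replicates as black bars. The SOX12 to SOX4 ratio is 3.13 to 4.42 in shCTRL and 1.22 to 1.44 in shCCN3 libraries, and no pair shown overlaps between the groups.

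SOX4 and SOX12 lie in stretches of the genome where other genes differed in the same direction. Of the 24 tested genes nearest to SOX4 by RefSeq position (GRCh38.p14), 19 had a positive log2 fold change and 17 were called higher, and their median log2 fold change was 0.44, beside 0.34 for the 891 genes tested on chromosome 6. The log2 fold change of SOX4 was 0.41 above the median of these neighbours and larger than that of 19 of them. Around SOX12, near the end of the short arm of chromosome 20, 23 of the 24 nearest genes had a negative log2 fold change and 16 were called lower. Their median was -0.52, beside -0.12 for the 444 genes of the chromosome, and SOX12 lay 0.15 below the median of its neighbours, with 5 of the 24 lower still. The part of the neighbourhood in the values of SOX4 and SOX12 was not tested.

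The other members that passed the filter stood in stretches with little shift. The median of the 24 nearest genes was -0.05 for SOX9, -0.13 for SOX13, 0.14 for SOX5 and 0.02 for SOX15. SOX9 thus lay 0.22 below its neighbours, and SOX5 1.19 below, on the log2 scale.

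**Figure D4:**
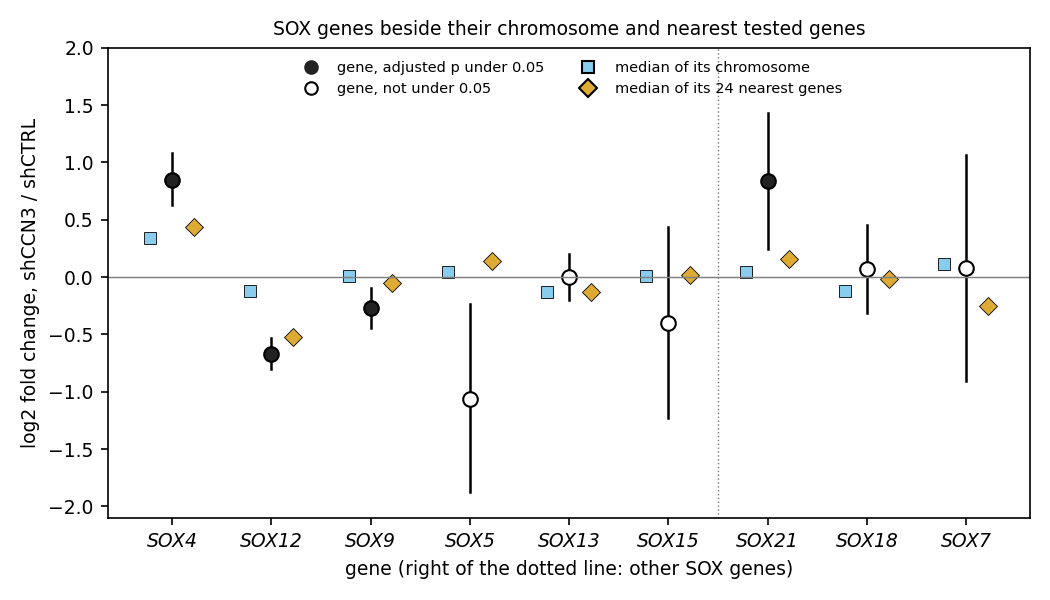
Log2 fold change (shCCN3 over shCTRL) of the 6 members and 3 other SOX genes that passed the filter, as circles with 95% intervals, filled where the adjusted p was under 0.05. Squares give the median of the gene's chromosome and diamonds that of its 24 nearest tested genes, which is 0.44 for SOX4, -0.52 for SOX12 and -0.05 for SOX9.

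Several members share their locus with a gene on the other strand, and whether the strand was used in counting is not given in the sources used here. In the GENCODE exons, no 50-base stretch of SOX9, SOX12 or SOX15 occurred in a transcript of the gene opposite. Of the stretches of SOX4, 2.09% were shared with AL512380.2 on the other strand. Of those of SOX6, 1.30% were shared with other genes, C11orf58 among them. Whether the counts mixed reads of such pairs was not tested. NRSN2-AS1, opposite SOX12, fell from 1.74 ± 0.329 to 1.04 ± 0.197 CPM (SD, n = 3 each; log2 fold change -0.75, adjusted p = 0.027 by edgeR's quasi-likelihood test). The call of NRSN2-AS1 was lost without shCTRL replicate 1 (adjusted p = 0.104, edgeR) and without shCCN3 replicate 1 (adjusted p = 0.0916, edgeR). SOX9-AS1, opposite SOX9, had 23, 26 and 24 counts in the shCTRL libraries and 9, 14 and 7 in the shCCN3 libraries (log2 fold change -1.18, adjusted p = 0.0487 by edgeR's quasi-likelihood test). Its call was lost without a filter on low counts (adjusted p = 0.0684, edgeR), by DESeq2 (adjusted p = 0.0858) and in 5 of the 6 fits that left out a library, all but the one without shCCN3 replicate 2, with an adjusted p of up to 0.163 (edgeR). Both antisense genes had far fewer counts than their partners. MPDU1, opposite SOX15, was at 72.3 ± 2.20 and 66.2 ± 8.61 CPM (SD, n = 3 each; adjusted p = 0.317 by edgeR's quasi-likelihood test), and SOX5-AS1 had no counts.

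Of the 10 other SOX genes in the table, 6 had no count in any library (SOX1, SOX3, SOX8, SOX10, SOX14 and SOX17) and 3 passed the filter. SOX21, a SOXB repressor of SOX2 target genes, was at 0.393, 0.525 and 0.685 CPM in the shCTRL libraries and at 0.856, 1.08 and 0.938 CPM in the shCCN3 libraries. The groups did not overlap, and the log2 fold change was 0.84 (SE 0.264, adjusted p = 0.0363 by edgeR's quasi-likelihood test). The call of SOX21 was lost in 5 of the 6 fits that left out a library, all but the one without shCTRL replicate 3, with an adjusted p of up to 0.109 (edgeR). The SOXF genes SOX18 (2.05 ± 0.141 and 2.15 ± 0.356 CPM, adjusted p = 0.791) and SOX7 (0.255 ± 0.110 and 0.265 ± 0.0900 CPM, adjusted p = 0.915), which act in endothelium, did not pass the threshold (SD, n = 3 each, edgeR's quasi-likelihood test).

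The other HMG-box factors listed are the TCF/LEF proteins, which bind β-catenin and compete with or join SOX proteins on Wnt targets, and HBP1, CIC and BBX. All 7 passed the filter, and 3 rose and 1 fell, against 16.2% of all genes tested called higher and 17.3% called lower (median log2 fold change 0.01, beside 0.008 over all genes tested). TCF7 was at 129, 132 and 133 CPM in the shCTRL libraries and at 76.6, 68.6 and 73.0 CPM in the shCCN3 libraries, a log2 fold change of -0.86 (adjusted p = 1.01e-05 by edgeR's quasi-likelihood test). TCF7L1, mostly a repressor, rose from 10.6 ± 0.565 to 18.9 ± 2.12 CPM (SD, n = 3 each; log2 fold change 0.84, adjusted p = 0.000185 by the same edgeR test), beside a median of 0.61 for its 24 nearest genes. As with SOX12 and SOX4, the ratio of TCF7 to TCF7L1 within a library differed between the groups without overlap, at 12.5 ± 0.475 in shCTRL and 3.86 ± 0.300 in shCCN3 cells (SD, n = 3 each; exact permutation p = 0.1). TCF7 and TCF7L1 had been called in opposite directions, so their ratio restates those calls and adds no separate test. BBX rose by 0.48 on the log2 scale (adjusted p = 0.00754, edgeR). LEF1 rose by 0.34 (adjusted p = 0.0276, edgeR), a call lost without shCTRL replicate 2, shCTRL replicate 3, shCCN3 replicate 1 or shCCN3 replicate 3, with an adjusted p of up to 0.115.

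Of 9 cofactors and modifiers of SOX proteins, all passed the filter, 1 fell and 8 did not pass the threshold, against 33.4% of all genes tested called (median log2 fold change 0.08). The one called was FBXW7, a ubiquitin ligase subunit that targets SOX9 for degradation, which fell from 14.3 ± 1.04 to 10.8 ± 0.807 CPM (SD, n = 3 each; log2 fold change -0.40, adjusted p = 0.00947 by edgeR's quasi-likelihood test). Without shCTRL replicate 2, FBXW7 missed the threshold (adjusted p = 0.0526, edgeR) and no gene of the list was called, while 5 were called without shCCN3 replicate 2. The count over all genes moved the same way, with 4181 of 17854 called without shCTRL replicate 2 and 7229 of 17837 without shCCN3 replicate 2. Nothing is read from these list counts about the cofactors. The partner β-catenin (CTNNB1) was at 324 ± 22.2 and 336 ± 31.2 CPM, and the coactivators EP300 and CREBBP at 58.6 ± 6.66 and 66.6 ± 17.1 CPM and at 46.0 ± 2.54 and 54.6 ± 10.2 CPM (SD, n = 3 each), with overlapping libraries. For CTNNB1, EP300 and CREBBP the overlap came from shCCN3 replicate 2 alone, at 300, 47.0 and 42.8 CPM. The same held for KPNB1 and SETD7 of this list.

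The cartilage genes that SOX9, SOX5 and SOX6 switch on in chondrocytes were mostly silent in both lines. Of 15, 5 passed the filter and 7 had no count in any library, among them COL2A1, ACAN, COMP, HAPLN1 and COL9A1. Of these, 3 were called, all higher in shCCN3 cells, against 33.4% of all genes tested called and 16.2% called higher. COL11A1 passed the filter only through the shCCN3 libraries, and with at least 10 counts required in every sample, 2 of 4 were called, so that no direction of the list is read from the count. COL11A1, a minor fibrillar collagen chain, had no count in any shCTRL library and was at 4.64, 3.38 and 3.52 CPM in the shCCN3 libraries (adjusted p = 4.86e-06 by edgeR's quasi-likelihood test). This is at least 81.0-fold higher, against a limit of 3 counts in a shCTRL library. COL27A1 rose from 2.51 ± 0.0253 to 9.78 ± 1.35 CPM (SD, n = 3 each; log2 fold change 1.96, adjusted p = 4.93e-06 by edgeR's quasi-likelihood test). MATN3, a cartilage matrix protein, rose from 2.09 ± 0.0829 to 7.07 ± 1.72 CPM (SD, n = 3 each; log2 fold change 1.76, adjusted p = 7.59e-05 by the same edgeR test), beside a median of 0.60 for its 24 nearest genes.

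Of 15 genes that act with or below SOX2 in pluripotent cells, 5 passed the filter and 7, among them NANOG, had no count in any library. Of the 5, 3 rose and 1 fell, against 16.2% and 17.3% of all genes tested (median log2 fold change 0.29). POU5F1, with 7, 6 and 11 counts in the shCTRL libraries, passed the filter only through the shCCN3 libraries. With at least 10 counts required in every sample, which leaves out POU5F1, 2 of 4 rose and 1 fell. No direction of the list is read from these counts. POU5F1, which encodes OCT4, was at 0.102, 0.0955 and 0.164 CPM in the shCTRL libraries and at 0.653, 0.450 and 0.578 CPM in the shCCN3 libraries, a log2 fold change of 2.20 (adjusted p = 0.00145 by edgeR's quasi-likelihood test), beside a median of 0.53 for its 24 nearest genes. The libraries did not overlap, but the level is low and processed copies of POU5F1 elsewhere in the genome make its count uncertain. MYC rose by 0.53 on the log2 scale (adjusted p = 0.000593, edgeR). POU2F1 rose by 0.29 (adjusted p = 0.0198, edgeR), a call lost without shCTRL replicate 2, shCCN3 replicate 1 or shCCN3 replicate 3. NES, an intermediate filament gene of neural stem cells with a SOX2-bound enhancer, fell from 1.90 ± 0.114 to 0.513 ± 0.208 CPM (SD, n = 3 each; log2 fold change -1.90, adjusted p = 0.000884 by edgeR's quasi-likelihood test).

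Of 5 genes known as targets of the SOXC proteins, 4 passed the filter, 1 rose and 2 fell, against 16.2% and 17.3% of all genes tested (median log2 fold change -0.08). TUBB3, a neuronal tubulin, rose from 351 ± 17.2 to 409 ± 25.2 CPM (SD, n = 3 each; log2 fold change 0.22, adjusted p = 0.0297 by edgeR's quasi-likelihood test), a call lost without shCTRL replicate 1, shCTRL replicate 2 or shCCN3 replicate 1. The 24 genes nearest to TUBB3 had a median of 0.60. MAP2, a neuronal microtubule protein, fell from 8.0 ± 0.717 to 3.30 ± 0.257 CPM (SD, n = 3 each; log2 fold change -1.28, adjusted p = 4.21e-05 by the same edgeR test). EZH2, a Polycomb methyltransferase and a target of SOX4, fell by 0.28 on the log2 scale (adjusted p = 0.00702, edgeR), beside a median of -0.44 for its 24 nearest genes. TEAD2 was at 39.5 ± 1.25 and 42.7 ± 3.15 CPM (SD, n = 3 each; adjusted p = 0.282, edgeR).

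In the mammary gland SOX9 acts with SNAI2 in stem cells and marks luminal progenitors, as KIT and ELF5 do. Of 9 progenitor genes, 6 passed the filter, of which 3 were called higher and 3 lower, against 33.4% of all genes tested called. ELF5 passed only through the shCTRL libraries and KRT14 only through the shCCN3 libraries, the groups in which they are high. With at least 10 counts required in every sample, 4 were tested, 2 called higher and 2 lower. SNAI2 rose from 30 ± 1.66 to 56.6 ± 5.49 CPM (SD, n = 3 each; log2 fold change 0.92, adjusted p = 4.3e-05 by edgeR's quasi-likelihood test), beside a median of 0.56 for its 24 nearest genes. The basal genes TP63 and KRT14 rose by 0.76 (adjusted p = 0.000928) and 3.69 (adjusted p = 1.14e-05) on the log2 scale by the same edgeR test, KRT14 from only 0.161 to 2.11 CPM. ELF5 was at 0.306, 0.223 and 0.447 CPM in the shCTRL libraries and at 0 in the shCCN3 libraries (adjusted p = 0.00126, edgeR). This is at least 6.09-fold lower, against a limit of 3 counts in a shCCN3 library. CD44 and ITGA6 were the other genes that fell, and KIT was near 0 in both lines.

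**Figure D5:**
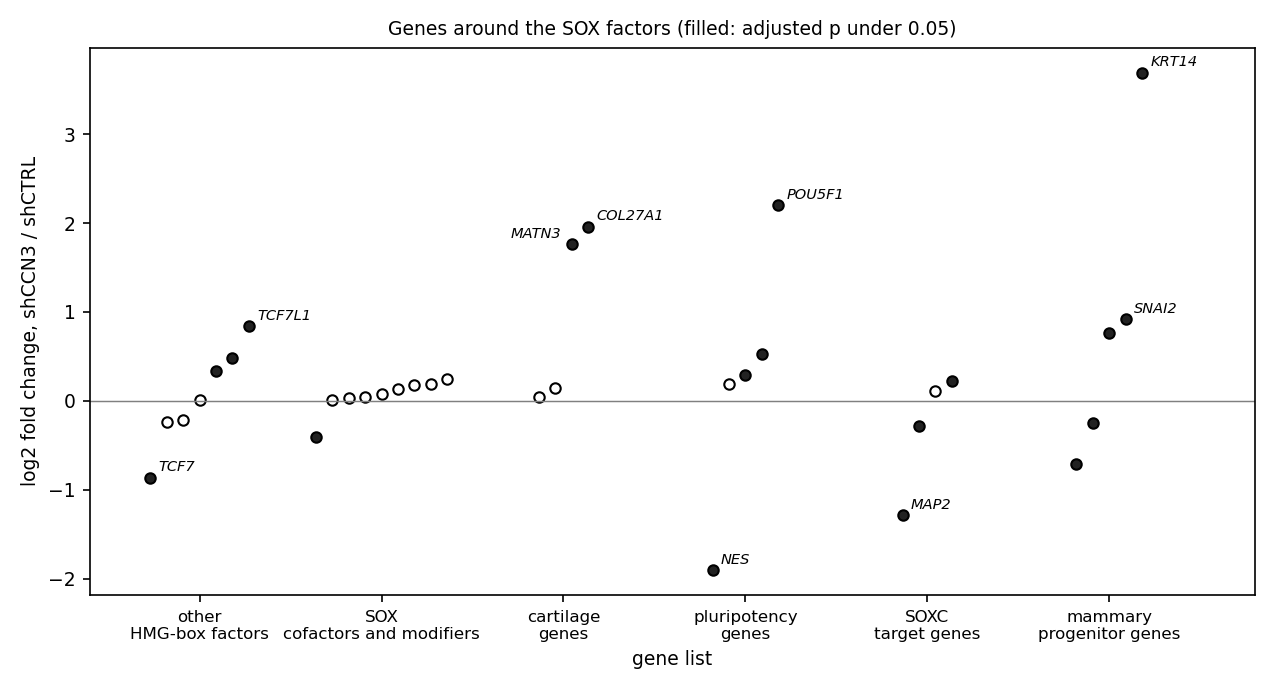
Log2 fold change (shCCN3 over shCTRL) of each gene of 6 lists that passed the filter, as circles filled where the adjusted p was under 0.05 by edgeR, with genes beyond 0.8 in size named. COL11A1 and ELF5, at 0 in every library of a group, are left out. Called genes lie on both sides of 0 in 4 of the 6 lists, on the upper side for cartilage genes, and the only call among cofactors, FBXW7 at -0.40, lies below.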

How the data were processed

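RNA was measured in 3 shCTRL and 3 shCCN3 libraries of Hs578T cells. The authors prepared TruSeq Stranded mRNA libraries, sequenced them on a NovaSeq 6000 and deposited raw read counts per gene without normalization. The submitters' processing notes name bcl2fastq 2.20.0, Trimmomatic, HISAT2 2.1.0, StringTie 2.1.3d, DESeq2 and build GRCh38, with no role or order. The annotation and the use of strand in counting are not given in the sources used here. Either could alter the counts of overlapping genes.

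TMM factors, CPM and log2 ratios between groups were derived from the counts in edgeR 4.0.16 (R 4.3.3). Genes passing edgeR's filter by group (17419) entered the quasi-likelihood test, and p-values were adjusted over all of them by Benjamini-Hochberg. Exact permutation tests served for ratios. The level of 1 marker gene is not reported here. Libraries of a group differed beyond counting noise (chi-square per degree of freedom 7.13 to 46), so that none was a copy. This value was 7.13 to 22.3 between shCTRL libraries. Of the shCCN3 libraries, replicate 2 differed from replicates 1 and 3 at 37.6 and 46, against 9.9 between replicates 1 and 3. Gene positions, exon lengths and coding sequences came from GENCODE release 29 on GRCh38, and neighbours from RefSeq positions of 17165 tested genes. Fits were tested on simulated data. The SOX genes and the gene lists were chosen with earlier results of these data known. The text names all 9 members, CCN3, other SOX genes, genes opposite members, and from each list every gene called or the 4 with the lowest p. The alternatives were DESeq2 size factors, upper-quartile factors, no filter, a minimum of 10 counts per sample, DESeq2 1.42.0, limma-voom (limma 3.58.1), a replicate block and each library left out, 13 in all.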

Additional observations from a re-analysis of the deposited data

How the results depend on the processing

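The directions of CCN3, SOX4, SOX5, SOX9, SOX12 and SOX15 were the same under each alternative that could be fitted, and the calls of CCN3, SOX4 and SOX12 held in all 13. SOX5 could not be fitted with at least 10 counts in every sample. SOX9 was no longer called with the replicate block (adjusted p = 0.0525, edgeR). The number of members called was 2 to 4. SOX13 turned negative with the replicate block, at -0.000833, and with a library left out its log2 fold change lay between -0.07 and 0.09. With the replicate block, 0 of the other SOX genes passed (edgeR). With each library left out in turn, 0 to 1 of the other SOX genes and 0 to 5 of the cofactors and modifiers passed, the latter 0 without shCTRL replicate 2 and 5 without shCCN3 replicate 2. The cause of these changes was not tested. Among all genes, the number called was 4181 to 7229 with a library left out, against 5825 of 17419 tested in the main fit. The 4181 were called of 17854 tested without shCTRL replicate 2, and the 7229 of 17837 tested without shCCN3 replicate 2.

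The sample titles link same-numbered libraries by the number only. Deviations from the group means correlated between same-numbered libraries at 0.149, -0.0726 and -0.259. With 3 libraries per group these values cannot show whether the numbers mark pairs, and the replicate block is given here alone. It also ended the calls of SOX21 (adjusted p = 0.0512, edgeR), NRSN2-AS1, SOX9-AS1, POU2F1 and TUBB3. Members with few counts (SOX2, SOX5, SOX6, SOX15) are limited by depth, and their intervals are wide or cannot be given.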
